A study of Mus musculus with 8 samples.

Results

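The 84 genes described here carry the symbols of cytosolic ribosomal proteins and their paralogues. They were taken from a table of 54385 Ensembl gene identifiers as the protein-coding genes whose GRCm38 symbol is Rpl or Rps with a number, together with Rplp0, Rplp1, Rplp2 and Rpsa. Rps6k kinases, pseudogenes marked -ps and predicted genes were left out. The small subunit contributes 32 of them and the large subunit 52. Reading the naming rule without a numeral after the letter leaves 81, since Rpl22l1, Rps3a1 and Rpl7l1 then drop out.

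Each cytosolic ribosome is built from a small subunit, which reads the messenger RNA, and a large subunit, which joins amino acids. The ribosomal proteins surround the ribosomal RNA and are needed in equal amounts, apart from the stalk, where Rplp1 and Rplp2 pairs bind to Rplp0 and recruit the elongation factors. Their messenger RNAs are short and abundant in most tissues. Many begin with a C followed by further pyrimidines, the terminal oligopyrimidine (TOP) motif through which the kinase mTOR and the protein Larp1 control their translation.

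Polyadenylated RNA of interscapular brown adipose tissue, the heat-producing fat between the shoulder blades, was sequenced from 20-week-old C57BL/6N mice fed chow. The cKO group holds 4 libraries with the genotype Adcy3-FL/FL and Adipoq-wt/cre, in which Cre recombinase under the adiponectin promoter acts in adipocytes and deletes part of Adcy3, the gene of the cyclic AMP-producing enzyme adenylyl cyclase 3. The WT group holds 4 libraries with the floxed Adcy3 alleles, so the floxed alleles are shared by both groups. Their titles say WT, which was read here as no Cre. The series asks what loss of adipocyte Adcy3 changes in brown fat, and the comparison here asks it of the ribosomal protein genes. The genotype entry of WT replicate 4 carries the Cre although its title names it WT. It was kept with WT by its title. Cells other than adipocytes keep an intact Adcy3. In whole tissue, fewer cells of a type and less RNA per cell cannot be told apart.

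Libraries held between 10712795 and 32436907 estimated counts. Adcy3 averaged 21.4 ± 3.03 CPM (counts per 1000000 counts) in cKO and 103 ± 27.4 CPM in WT (SD, n = 4 each), and was lower in each cKO library than in any WT library (edgeR adjusted p = 0.000925). WT 4, at 118 CPM, lay with the other WT libraries. All 10 brown adipocyte markers examined were measured, with summed levels of 5710 to 8657 CPM in cKO and 6330 to 7158 CPM in WT. Skeletal muscle transcripts varied most: their 14 markers summed to between 194 and 11133 CPM in cKO and between 73.0 and 8662 CPM in WT, with the most in cKO 1 and WT 4. Transcripts of the mitochondrial genome took 30.2% ± 2.31 of the counts in cKO and 26.2% ± 1.48 in WT.

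Sequence from the start of 7 ribosomal protein transcripts is shown because the TOP motif lies at a transcript's start. The windows of 5 begin at the annotated first base, while that of Rplp0 begins at base 6 and that of Rps21 at base 29. The set holds the 4 genes with the lowest p-values in the comparison of cKO with WT (Rps21, Rplp1, Rplp2 and Rps19), the stalk base Rplp0, the most abundant member Rps2, and Rpl32 as an example of a long run. Each sequence lies in exon 1 of the lowest-numbered protein-coding GENCODE transcript and is written 5′ to 3′, with the pyrimidine run that starts with C in capitals.
Rps21: acgagctaCTTCCTTTCTgcgctctcgctg
Rplp1: gatCTTTTCCTCagctgccgccaaggtgct
Rplp2: gggagCTgtggagccgagtagcatgctggg
Rps19: tttCCCCTggctggcagcgcggaggccgca
Rps2: CTTCTTCTTCTTCgggagaacacgtgagtc
Rplp0: gcctggttCTCCTataaaaggcacacgcgg
Rpl32: CTTCCTTCTTCCTCggcgctgcctacgagg
In GRCm38 these windows are chr2:180257405-180257434 (plus strand) for Rps21, chr9:61914513-61914542 (minus strand) for Rplp1, chr7:141447370-141447399 (plus) for Rplp2, chr7:24884636-24884665 (plus) for Rps19, chr17:24720110-24720139 (plus) for Rps2, chr5:115559472-115559501 (plus) for Rplp0 and chr6:115808718-115808747 (minus) for Rpl32. The windows of Rps2 and Rpl32 open with the run at the annotated first base, as a TOP motif does, and their runs are 13 and 14 bases long. The run of Rplp1 begins at base 4 and that of Rps21 at base 37 of the annotated transcript. Rplp2 holds no run longer than 2 bases in the window shown. That of Rps19 has 5 bases and follows ttt, which is not counted because a run starts with C. A run of at least 7 bases, a C followed by C or T on the sense strand, began within the first 50 bases in 41 of the 84 members (48.8%) and in 22.8% of 21642 other protein-coding genes. At the annotated first base itself, a C followed by 4 or more pyrimidines stood in 13.1% of members and 2.15% of the other genes. Annotated starts can differ from the starts used in this tissue, so a missing run says only that these letters are not in the window.

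Ribosomal protein genes gave less than 1 part in 100 of the counts in each library other than WT 3. Their share was 0.676%, 0.649%, 0.812% and 0.677% in cKO 1 to 4, and 0.755%, 0.820%, 1.02% and 0.844% in WT 1 to 4. The highest cKO library, cKO 3, lay above WT 1, so the groups overlapped. The mean was 0.703% ± 0.0737 in cKO and 0.859% ± 0.112 in WT (SD, n = 4 each), a difference of -0.16 percentage points that was -0.10 without WT 3. Small subunit genes took 0.290% ± 0.0309 in cKO and 0.359% ± 0.0480 in WT. Large subunit genes took 0.413% ± 0.0429 in cKO and 0.50% ± 0.0638 in WT. Counted without the mitochondrial genome, whose share differed between groups, the members took 1.01% ± 0.117 in cKO and 1.17% ± 0.167 in WT.

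**Figure D1:**
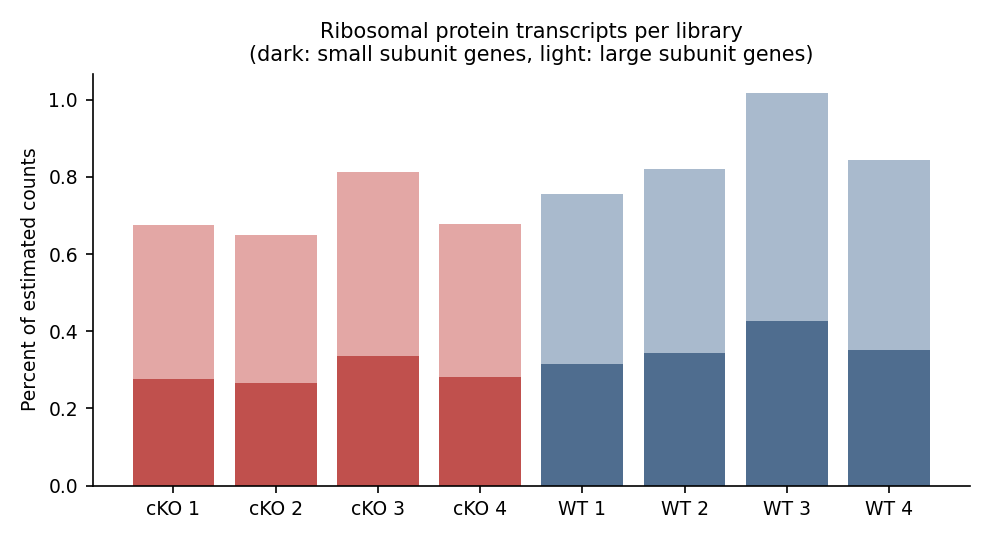
Percent of estimated counts taken by the 84 ribosomal protein genes in each library, cKO in red and WT in blue, with small subunit genes in the dark part of each bar and large subunit genes in the light part. WT 3 is highest at 1.02% and cKO 2 lowest at 0.649%, and cKO 3 at 0.812% stands above WT 1 at 0.755%.

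In levels scaled by trimmed mean of M-values (TMM), Rps2, a protein of the small subunit near the mRNA entry, was the most abundant member at 300 CPM on average over the 8 libraries. It was followed by Rplp0 at 254 CPM, Rpsa, the small subunit protein also known as the laminin receptor, at 227 CPM, Rpl7a at 186 CPM and Rpl4 at 185 CPM. Per kilobase of representative transcript, the order changed to Rps2 (312 CPM per kb), Rpl41 (294 CPM per kb), Rplp1 (263 CPM per kb), Rpl23a (249 CPM per kb) and Rps12 (243 CPM per kb). Rpl41 is the smallest ribosomal protein. Of the 84 members, 79 averaged at least 10 CPM. The 5 others were Rpl5 (8.88 CPM), Rpl12 (5.80 CPM), Rps27 (5.17 CPM), Rpl39l (1.43 CPM) and Rpl10l, which had no count in any library. A count of 0 allows up to 3 counts of the total in each library, by counting error alone.

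Most ribosomal protein genes had a lower fitted level in cKO, but none passed the test. Of the 83 members tested, 0 were called by edgeR's quasi-likelihood test at a Benjamini-Hochberg adjusted p of 0.05, where 0.0687% of all 14553 genes were called. Adjusted p-values of the members ran from 0.183 to 0.997. At an unadjusted p under 0.05, 22 members were lower in cKO and 0 higher, where 3.45% of all genes were lower and 2.15% higher. The fitted log2 fold change of cKO over WT was negative for 72 of 83 members, against 48.2% of all genes, and its median was -0.17, against 0.01 over all genes tested. These shares are descriptions, since members vary together from library to library and were chosen with results of these data known.

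The count at an unadjusted p under 0.05 depended on single libraries. It was 22 without WT 1 (3.76% of all genes lower in the same fit), as with all libraries, and 15 without WT 2 (2.44%). The count was 12 without WT 3 (2.11%), 13 without WT 4 (3.16%) and 12 without cKO 1 (4.03%). It was 10 without cKO 2 (2.33%), 11 without cKO 4 (2.21%) and 34 without cKO 3 (4.12%). Without WT 4 and cKO 1 together, the libraries richest in muscle transcripts, it was 10 (3.90% of all genes), the median log2 fold change was -0.12 and 64 of 83 members stayed negative.

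Rps21, Rplp1, Rplp2 and Rps19, the members named with the rule, had the lowest unadjusted p-values of the members in this comparison. They were chosen with results of these data known. Rps21 encodes a protein of the small subunit. It lies at chr2:180257377-180258445 (GRCm38, plus strand) and had 37.9, 34.0, 44.8 and 38.0 CPM in cKO 1 to 4, against 57.5, 59.1, 57.1 and 54.9 CPM in WT 1 to 4. Each cKO library lay below each WT library, and WT libraries were close together. Its log2 fold change was -0.56 (SE 0.11), a level 67.7% of WT (edgeR, unadjusted p = 0.000164 and adjusted p = 0.183).

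Rplp1 (chr9:61913284-61914542, minus strand) and Rplp2 (chr7:141447370-141451585, plus strand) encode the acidic proteins that form the mobile arms of the stalk. Rplp1 had 109, 93.4, 121 and 99.5 CPM in cKO, against 149, 146, 187 and 147 CPM in WT. Rplp2 had 108, 114, 139 and 108 CPM in cKO, against 164, 162, 194 and 161 CPM in WT. Neither gene overlapped between the groups, and cKO 3 and WT 3 were the highest library of their group for both. The log2 fold change was -0.57 (SE 0.12) for Rplp1 and -0.54 (SE 0.12) for Rplp2, each with an edgeR adjusted p of 0.393.

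Rps19 (chr7:24884371-24889806, plus strand), a small subunit protein whose human counterpart is mutated in Diamond-Blackfan anaemia, had 85.4, 86.8, 106 and 90.2 CPM in cKO, against 131, 120, 157 and 115 CPM in WT. Here too the groups did not overlap. The log2 fold change was -0.51 (SE 0.13; adjusted p = 0.497 in edgeR). DESeq2's Wald test called these 4 members and no other member, with adjusted p-values of 0.0018 for Rps21, 0.00616 for Rplp1, 0.00653 for Rplp2 and 0.0459 for Rps19, where it called 0.144% of all genes as lower. edgeR without a count filter called the same 4 and Rpl39, where it also called 0.144% of all genes as lower. limma-voom called none of the members, where it called 0.0687% of all genes. With WT 4 moved to cKO the edgeR adjusted p was 0.685 for each of the 4.

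**Figure D2:**
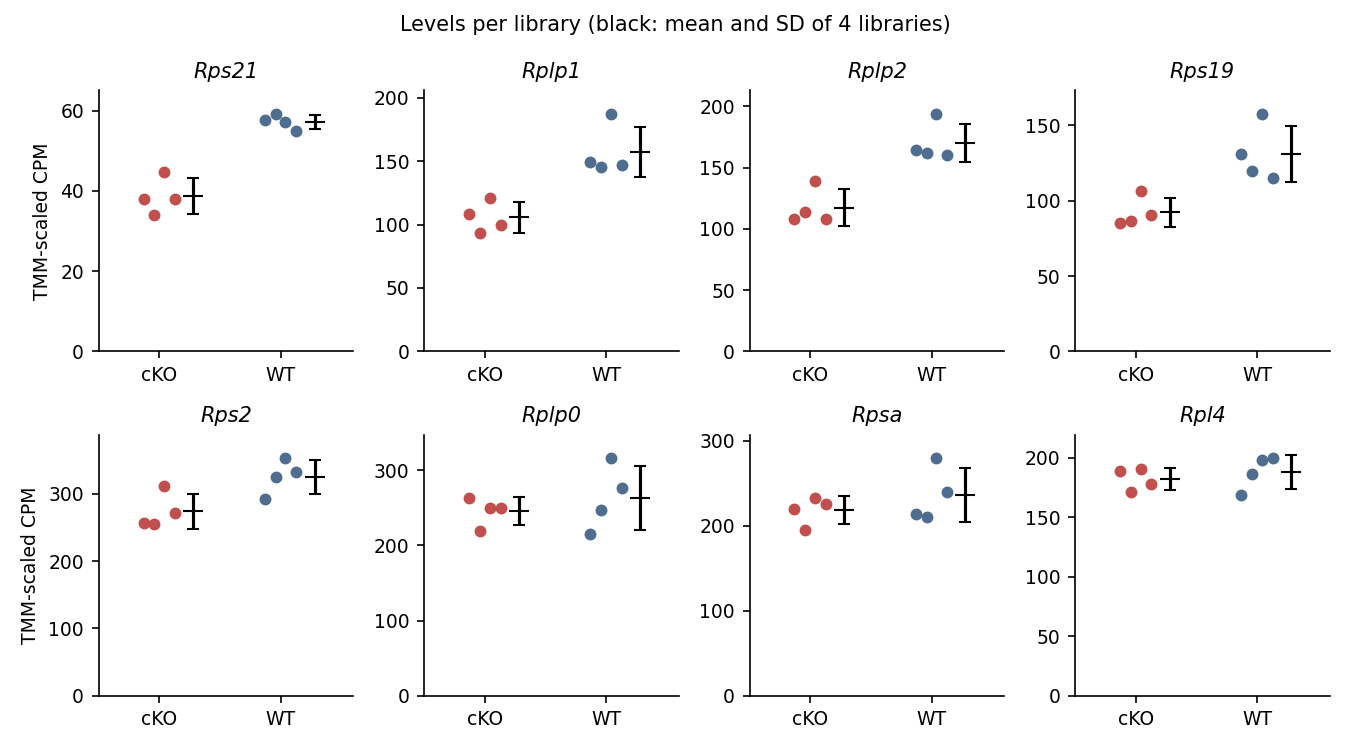
TMM-scaled CPM of 8 ribosomal protein genes in each cKO library (red, left) and each WT library (blue, right), with the mean and SD of 4 libraries in black. The groups are apart for Rps21, Rplp1, Rplp2 and Rps19 and overlap for Rps2, Rplp0, Rpsa and Rpl4.

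Groups did not overlap, with cKO lower, for 10 of the 83 members, against 2.27% of all genes, and with cKO higher for 0 of them, against 1.23% of all genes. Beside the 4 above these included Rps13, Rps16, Rpl30, Rpl36 and Rpl39. With 1 library left out, which makes non-overlap commoner for any gene, the count was 36 without cKO 3 (5.16% of all genes), 20 without WT 1 (4.58%) and 10 to 12 without any of the others (3.13% to 4.94%). Without cKO 1, 1 member was higher in cKO without overlap (4.39% of all genes). Rpl36, a large subunit protein, averaged 55.5 ± 5.61 CPM in cKO and 75.1 ± 7.05 CPM in WT. Its log2 fold change of -0.44 (SE 0.11) had an adjusted p of 0.617 in edgeR. Rpl39, one of the smallest proteins of the large subunit, lying at the exit tunnel, averaged 31.5 ± 5.51 CPM in cKO and 44.6 ± 3.92 CPM in WT, a log2 fold change of -0.50 (SE 0.13; adjusted p = 0.638 in edgeR).

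Among small subunit genes, 12 of 32 had an unadjusted p under 0.05, all lower in cKO, and the median log2 fold change was -0.22. Among large subunit genes the count was 10 of 51, also all lower, and the median -0.13. Of all genes tested, 3.45% were lower at such a p. The difference between the subunits was not tested. Fold changes of all tested members ran from -1.30 for Rps27 to 0.64 for Rpl3l, both with wide intervals.

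**Figure D3:**
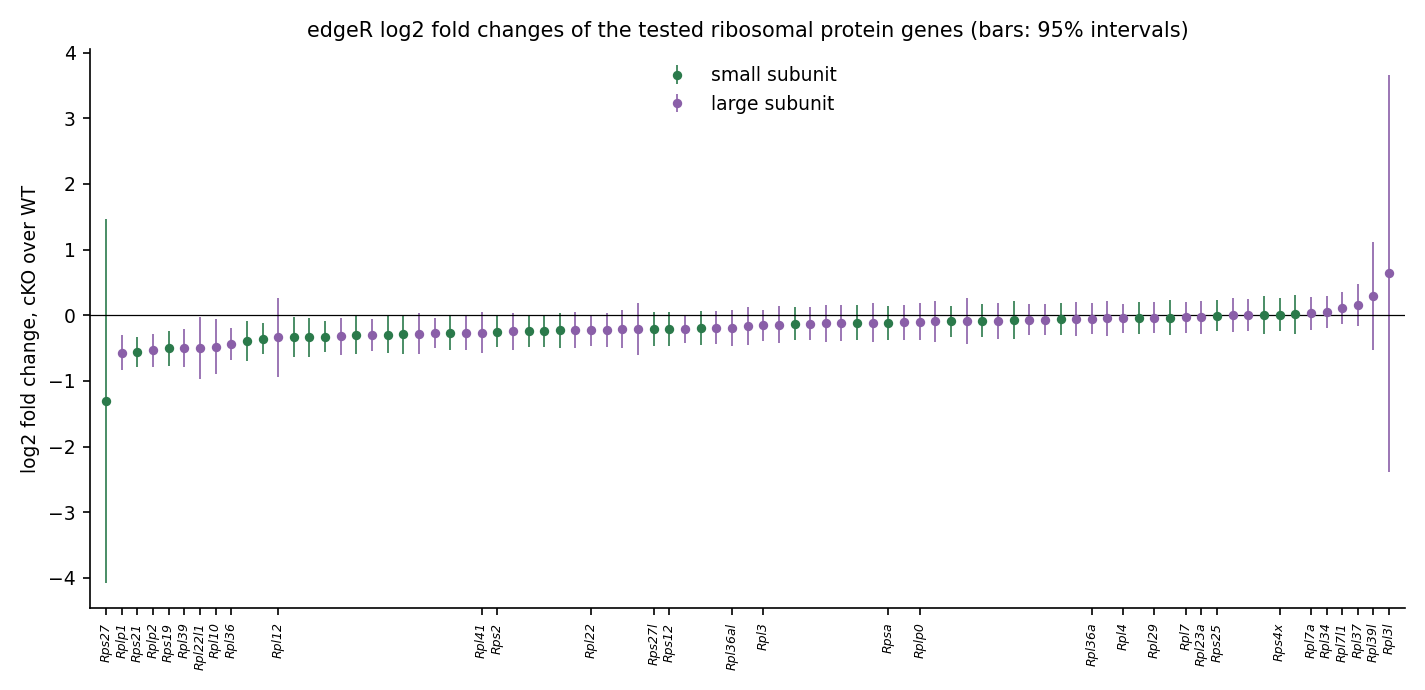
edgeR log2 fold change of cKO over WT for each of the 83 tested ribosomal protein genes, ordered from lowest to highest, with 95% intervals, small subunit in green and large subunit in purple, and with a symbol under some of the genes. Most points lie below 0 (72 of 83), and the intervals of Rps27 and Rpl3l, at the ends, are by far the widest.

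The third stalk protein, Rplp0, which anchors the stalk to the ribosome, had 263, 219, 250 and 250 CPM in cKO, against 215, 247, 316 and 276 CPM in WT. Its groups overlapped, WT 1 being the lowest library of all, and its log2 fold change was -0.10 (SE 0.13, edgeR adjusted p = 0.945). The difference between Rplp0 and its partners was not tested. Rpsa averaged 218 ± 16.4 CPM in cKO and 236 ± 31.7 CPM in WT, and its log2 fold change of -0.11 had an edgeR adjusted p of 0.929. Rps2 had 257, 256, 311 and 272 CPM in cKO, against 292, 325, 353 and 332 CPM in WT. All but cKO 3 lay below the WT libraries, and the log2 fold change was -0.25 (SE 0.11, unadjusted p = 0.0434, edgeR adjusted p = 0.884).

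The members with the smallest spread over the 8 libraries were Rpl4, Rpl7, Rpl36a, Rps25 and Rpl29. Rpl4 averaged 182 ± 8.90 CPM in cKO and 188 ± 14.3 CPM in WT. Rps25 averaged 99.0 ± 10.7 CPM in cKO and 99.5 ± 5.70 CPM in WT, with a log2 fold change of -0.01. Rpl7 averaged 164 ± 13.4 CPM in cKO and 168 ± 13.9 CPM in WT. Rpl37 and Rpl34 had the largest positive fitted values among members above 10 CPM whose transcripts are not those of a paralogue, at 0.16 (edgeR adjusted p = 0.922) and 0.05 (edgeR adjusted p = 0.976), and both overlapped between groups.

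Among the members are 7 paralogues, genes related to another ribosomal protein gene, and 6 of them were tested. Rpl3l is the striated muscle paralogue of Rpl3. It had 32.2, 11.6, 1.84 and 7.13 CPM in cKO, against 0.840, 6.00, 2.43 and 25.5 CPM in WT. The order of the 8 libraries by Rpl3l was that of their muscle marker share, from cKO 1 (1.09% of counts) and WT 4 (0.884%) down to WT 1 (0.0072%). Its log2 fold change was 0.64 (SE 1.25, edgeR adjusted p = 0.972), and -0.32 without cKO 1. Rpl3 itself averaged 165 ± 17.5 CPM in cKO and 184 ± 10.7 CPM in WT. The part of muscle in the other members' values was not tested.

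Rpl22l1, the paralogue of Rpl22, averaged 8.95 ± 3.20 CPM in cKO and 12.7 ± 0.977 CPM in WT, with an unadjusted p of 0.0426 and an edgeR adjusted p of 0.884. Rpl22 averaged 56.2 ± 6.26 CPM in cKO and 65.9 ± 4.74 CPM in WT. Rps27l averaged 44.2 ± 5.86 CPM in cKO and 51.2 ± 4.18 CPM in WT. Rpl7l1 and Rpl36al overlapped between the groups as well, with log2 fold changes of 0.11 and -0.19. Rpl39l, known from the testis, averaged 1.59 ± 0.737 CPM in cKO and 1.28 ± 0.358 CPM in WT, and Rpl10l, also a testis gene, had no count. No gene with the symbol Rps4l met the rule.

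Ribosomal protein genes have many near-identical copies in the mouse genome, and estimated counts divide reads among them. Of the 31-base stretches in a member's representative transcript, a median of 49.7% also occurred in another gene. At least 50% were shared in 40 of the 84 members. The level of such a member on its own is uncertain. Rps27 shared 98.7% of its stretches with Rps27rt. Rps27 had 0.949, 4.39, 5.71 and 0.816 CPM in cKO, against 4.11, 22.3, 1.49 and 1.59 CPM in WT, while Rps27rt averaged 48.8 CPM in cKO and 50.1 CPM in WT. Summed, the pair had a log2 fold change of -0.15 in place of the -1.30 of Rps27 alone. For 8 members the closest copy had the higher level. Rpl5, for example, averaged less than 10 CPM, while its copy Gm15500 averaged 118 CPM in cKO and 123 CPM in WT. Rpl10 averaged 24.6 CPM in cKO and 34.3 CPM in WT, and its copy Rpl10-ps3 averaged 105 CPM in cKO and 110 CPM in WT.

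Among the 4 genes with the lowest p-values, the share of 31-base stretches also found in another gene was 75.1% for Rplp1, 45.3% for Rps21, 38.1% for Rplp2 and 27.4% for Rps19, so the level of Rplp1 on its own is among the uncertain ones. The closest copies of Rps21 (Gm5963) and Rplp1 (Gm10073) had 0 estimated counts in all libraries, that of Rps19 at most 0.542 CPM, and that of Rplp2, Wdr89, at most 5.27 CPM. These low values come from the same division of shared reads. With the closest copy added to each member, a choice made after seeing the data, 0 members were called, 24 had an unadjusted p under 0.05, all lower in cKO (3.46% of all genes in that fit), and the median log2 fold change was -0.15. In those sums Rps16, apart between groups on its own, overlapped between groups at a log2 fold change of -0.27, while Rps28 came apart. Rpl36 shared 94.1% and Rps13 87.5% of their stretches with other genes. Both stayed apart between groups in the sums, as did Rpl30, Rpl39 and the 4 genes with the lowest p-values. Overlapping genes were searched with small RNA genes, such as those of snoRNAs, and some provisional gene entries left out. In that search none of these 4 genes overlapped another annotated gene, whereas 26 members did. Among those members were Rps2 (Snhg9, opposite strand) and Rpl12 (Lrsam1, opposite strand). How the counting treated strand is not given in the sources used here, so reads of such pairs may be mixed.

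The members varied together from library to library, within as well as between groups. WT 3 was the highest library for 53 of the 83 tested members and cKO 3 for 18. cKO 1 was the lowest for 34, cKO 2 for 21 and cKO 4 for 14. Over the 79 members at 10 CPM or more, the median Pearson correlation between pairs of members over the 8 libraries was 0.66, and 0.68 after group means were removed. The first principal component held 62.6% of their variance. All of these values share the same 8 libraries and their scaling. The non-member genes whose log2 level was most like the members' mean over the 8 libraries were Tmem234 (Pearson r 0.98), Llph (0.98), Fau (0.98), Plekhj1 (0.97) and Anp32b (0.97). Fau encodes the small subunit protein eS30 as a fusion with a ubiquitin-like protein, and its symbol falls outside the naming rule.

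Ribosomal protein transcripts are short, and the libraries differed in the level of short transcripts relative to long ones. The cause of that difference was not tested. The representative transcript of a member had a median length of 857.5 nt, against 3013 nt for other protein-coding genes, and 55 of 84 were under 1000 nt. Among the 83 members tested, the Spearman correlation of mean log2 CPM was 0.18 with the length of the representative transcript and 0.53 with coding length. With representative transcript length it was 0.07 over 12780 other protein-coding genes. Genes are not independent replicates, and these correlations are descriptions.

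For each library, the deviation of log2 CPM from the 8-library mean was fitted on log2 length over the 12780 other genes, members left out. The slope per doubling of length was 0.060, 0.048, -0.077 and 0.042 in cKO 1 to 4, and 0.014, 0.008, -0.107 and 0.013 in WT 1 to 4. WT 3 and cKO 3, the libraries with the highest mean log2 CPM of the members, were the only ones with a negative slope, that is, with more of the short transcripts of other genes too. Slopes averaged 0.018 ± 0.064 in cKO and -0.018 ± 0.060 in WT, and no difference between groups was detected (two-sided exact permutation test on 4 against 4 libraries, p = 0.457, where 0.0286 is the smallest p possible). Other genes under 600 nt deviated by 0.24 in WT 3, 0.15 in cKO 3 and -0.19 in cKO 1. Members under 600 nt deviated by 0.24 in WT 3, 0.10 in cKO 3 and -0.25 in cKO 1.

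**Figure D4:**
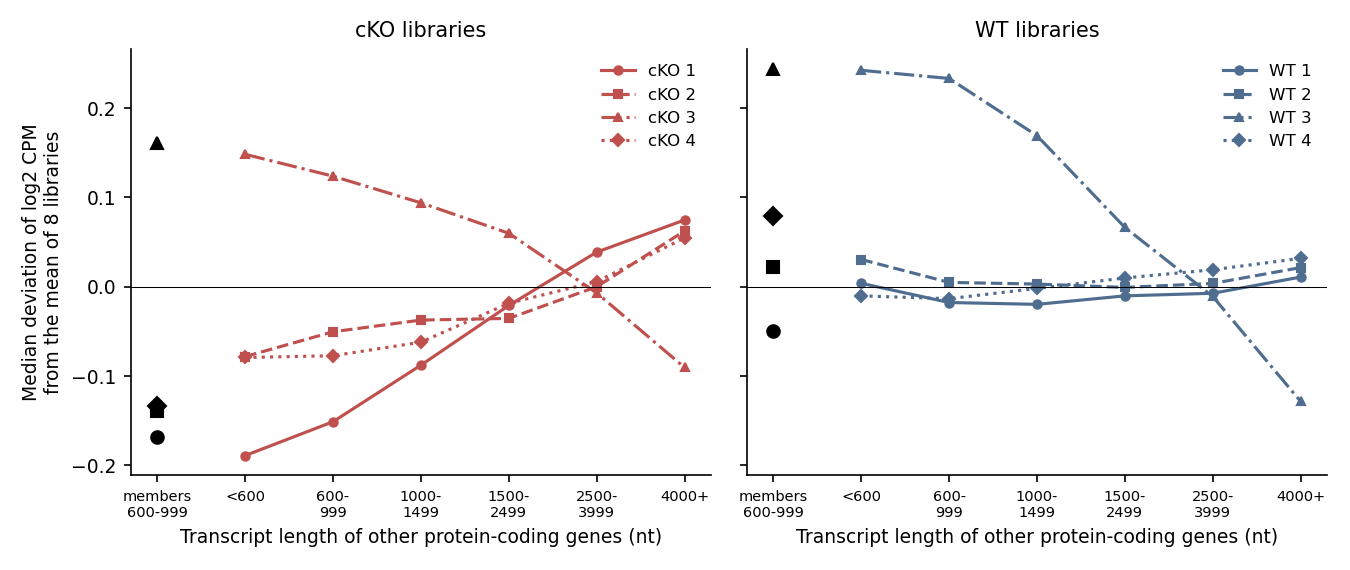
Median deviation of log2 CPM from the 8-library mean by transcript length class of other protein-coding genes (coloured lines, 1 per library, cKO left and WT right), with ribosomal protein genes of 600 to below 1000 nt as black symbols of the same shape. Lines of WT 3 and cKO 3 fall with length, and those of cKO 1, cKO 2 and cKO 4 climb with length, cKO 1 from the lowest point. The black symbols of WT 3 and cKO 3 are the highest of their panels.

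Fold changes also followed length. The Spearman correlation of log2 fold change with length was 0.21 among the members and 0.16 among other protein-coding genes, so shorter transcripts tended to be lower in cKO in both sets. Among members the correlation was -0.02 with the union of exons as length, 0.09 without WT 2 and 0.13 without cKO 1. Among transcripts under 600 nt the median log2 fold change was -0.25 for 20 members and -0.08 for 133 other genes. From 600 nt to below 1000 nt it was -0.12 for 35 members and -0.08 for 587 other genes, and from there to below 1500 nt -0.18 for 16 members and -0.05 for 1232 other genes. With each library's length trend taken out of the fit, the members' median was -0.09, 60 of 83 were negative, 14 had an unadjusted p under 0.05, all lower in cKO (3.41% of all genes), and 0 were called. The 4 genes with the lowest p-values then had log2 fold changes of -0.45 (Rps21), -0.46 (Rplp1), -0.46 (Rplp2) and -0.44 (Rps19), with edgeR adjusted p-values of 0.188 to 0.439.

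**Figure D5:**
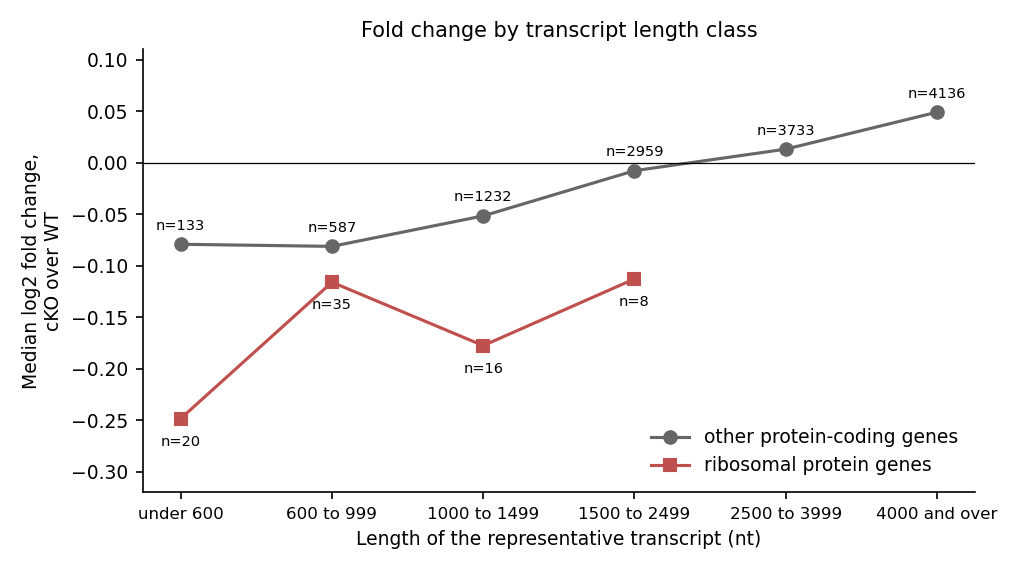
Median log2 fold change of cKO over WT by length class of the representative transcript, for ribosomal protein genes (red squares, classes with at least 5 genes) and other protein-coding genes (grey circles), with the number of genes beside each point. Other genes go from -0.08 under 600 nt to 0.05 at 4000 nt and over, and the members lie below them in each class shown.

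The median log2 fold change of members with a pyrimidine run of at least 7 bases near their start was -0.19 over 41 genes. For members without such a run it was -0.15 over 42 genes. An unadjusted p under 0.05 was seen for 12 members with a run and 10 without, all lower in cKO. Of all genes tested, 3.45% were lower at such a p. The difference between members with and without a run was not tested. Of the 4 genes with the lowest p-values, Rps21 and Rplp1 have such a run in the windows printed above, and Rplp2 and Rps19 do not. The run of Rps19 would be longer if the ttt before its first C were counted.

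Fau and Rack1, ribosomal proteins under other symbols, also had negative fitted values, neither past the test, and that of Rack1 turned positive with the length trend taken out. Fau averaged 70.1 ± 12 CPM in cKO and 89.9 ± 8.35 CPM in WT, a log2 fold change of -0.36 (edgeR, unadjusted p = 0.0167 and adjusted p = 0.882). Rack1, a scaffold on the small subunit, averaged 127 ± 6.50 CPM in cKO and 130 ± 14.4 CPM in WT (edgeR adjusted p = 0.984).

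Among 16 translation factors and other genes with TOP messenger RNAs, 0 were called, 0 had an unadjusted p under 0.05 and the median log2 fold change was -0.03. Over all genes tested, 0.0687% were called and 5.60% had such a p in either direction. Eef1a1, which brings aminoacyl-tRNA to the ribosome, averaged 1904 ± 81.3 CPM in cKO and 1923 ± 104 CPM in WT. Eef2, the translocation factor that binds at the stalk, averaged 862 ± 52.0 CPM in cKO and 980 ± 99.0 CPM in WT, and its log2 fold change of -0.19 had an edgeR adjusted p of 0.894. Among 31 ribosome biogenesis genes, 0 were called and the median was 0.00. An unadjusted p under 0.05 was seen for 1 of them, lower in cKO, as for 3.45% of all genes. Ncl, the nucleolar protein nucleolin, averaged 120 ± 12.6 CPM in cKO and 113 ± 16.2 CPM in WT. Ubtf, a transcription factor of ribosomal DNA, averaged 83.7 ± 5.93 CPM in cKO and 84.2 ± 8.67 CPM in WT.

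Of 17 tested regulators of ribosomal protein messenger RNAs, 0 were called by edgeR, where 0.0687% of all genes were called. Their median log2 fold change was 0.03. An unadjusted p under 0.05 was seen for 1 of them, lower in cKO, where 3.45% of all genes were lower. Groups did not overlap, with cKO lower, for 1 of the 17, against 2.27% of all genes. With cKO higher this held for 0, against 1.23% of all genes. Mtor averaged 180 ± 33.0 CPM in cKO and 173 ± 44.6 CPM in WT, and Eif4ebp2, a repressor of cap-dependent translation that mTOR inactivates, averaged 292 ± 21.3 CPM in cKO and 278 ± 27.4 CPM in WT. Ddit4, whose protein Redd1 inhibits mTOR complex 1, was picked out after its values were seen. It averaged 25.8 ± 5.14 CPM in cKO and 59.3 ± 16.9 CPM in WT without overlap, at a log2 fold change of -1.20, with adjusted p-values of 0.119 in edgeR and 5.4e-06 in DESeq2. The edgeR adjusted p was 0.0212 without cKO 1, 0.0148 without WT 4 and cKO 1, and 6.4e-16 without a count filter. That last fit made 93 calls over all genes. Beyond these settings and DESeq2, no alternative called Ddit4. Of the 78 mitochondrial ribosomal protein genes, which serve translation inside mitochondria, 0 were called, where 0.0687% of all genes were called. Their median log2 fold change was -0.02. At an unadjusted p under 0.05, 4 were lower and 2 higher, where 3.45% of all genes were lower and 2.15% higher. Groups did not overlap, with cKO lower, for 7 of the 78, against 10 of the 83 cytosolic members and 2.27% of all genes. With cKO higher they did not overlap for 1 of the 78, against 1.23% of all genes. Mrpl12 averaged 114 ± 11.9 CPM in cKO and 118 ± 16.9 CPM in WT, and Mrpl51 102 ± 11.1 CPM in cKO and 102 ± 7.84 CPM in WT.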

How the data were processed

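The authors deposited 1 table of estimated counts per Ensembl gene for 8 libraries. The submitters' processing notes list StringTie, Salmon, edgeR and GRCm38 and give no versions. The sources used here do not give the annotation, strand setting or filters. Such estimated counts divide reads among similar transcripts. Libraries were paired-end (NEBNext Ultra II), per the labels' protocols. The design text says inguinal where the sample labels say interscapular.

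Estimated counts were rounded. GENCODE M21 named 54131 identifiers (99.5%) and gave transcript lengths and sequences. edgeR 4.0.16 (R 4.3.3) kept 14553 genes with filterByExpr, scaled libraries by TMM and ran the robust quasi-likelihood test with group as the only term, at a Benjamini-Hochberg adjusted p of 0.05. Fold changes are cKO over WT. limma 3.58.1 (voom) and DESeq2 1.42.0 were alternatives; scripts were tested on simulated data. Summaries used Python 3.11.15. The representative transcript is the protein-coding one with the longest coding sequence, the longer in ties, and length trends were taken out with a loess fit (span 0.5) as an offset.

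Members and gene lists were chosen with earlier results of these data known, so no p-value was computed over the members as a set. Named genes are those of the rule, the extremes in level, fold change, p and spread, paralogues with their parents, and 2 abundant genes per other list. Replicates of a group are separate libraries; no label ties each to its own animal, and the p-values then reflect only variation among libraries, which may be technical. Same-group libraries differed beyond sampling noise (smallest chi-square per degree of freedom 14.5, genes with at least 20 counts). The limit given for a count of 0 covers counting error only; fold change intervals come from the edgeR fit. Some genes are not reported here.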

Additional observations from a re-analysis of the deposited data

Results flagged for a closer look

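In 11 of 90 groups of 4 examined, 1 library stood far from the other 3 by the gap relative to the whole range. The cutoff passes about 1 in 20 independent groups by chance. The genes here were named partly for their spread and vary together, so that rate is no benchmark for them. WT 3 was high for Rplp1 (187 CPM, others 146 to 149), Rplp2 (194 CPM, others 161 to 164) and Rpl36al (58.3 CPM, others 42.5 to 44.7), and low for Adcy3 (61.7 CPM, others 112 to 118). cKO 3 was high for Rpl12 (8.76 CPM, others 3.59 to 4.09), Rpl34 (70.2 CPM, others 55.3 to 57.4) and Fau (88.0 CPM, others 61.7 to 66.0), and low for Mtor (131 CPM, others 189 to 201). WT 2 was high for Rps27 (22.3 CPM, others 1.49 to 4.11) and low for Rps25 (91.0 CPM, others 101 to 103). WT 4 was high for Ubtf (97.0 CPM, others 77.9 to 81.1). WT 3 and cKO 3, named in 8 of these 11 groups, are the 2 libraries with negative length slopes.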

How the results depend on the processing

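No ribosomal protein gene was called in 21 of the 23 alternatives; DESeq2 called 4 of 47 genes, and without a count filter edgeR made 93 calls, 5 of them members. The members' median log2 fold change was negative in all 23 alternatives tried, from -0.28 (library totals alone) to -0.09 (length trend taken out), and from -0.24 to -0.09 when 1 library was left out. Over all genes the count of called genes was 8 to 14 with 1 library left out and 1 with WT 4 moved to cKO. Adcy3 lost its call with WT 4 moved (log2 fold change -1.26, edgeR adjusted p = 0.747) and with the replicate block (-2.23, edgeR adjusted p = 0.225). Libraries of the same replicate number had correlated deviations of -0.46, 0.035, 0.41 and 0.0016, so the numbers were not taken as pairing; the replicate block called 7 genes and 0 members, with a median of -0.16 and 30 members (3.63% of all genes lower) at an unadjusted p under 0.05. The relation of the members' fold change to length was -0.020 with the union of exons and 0.091 to 0.26 with 1 library left out. The relation of level to length was 0.11 with the union of exons, 0.53 with coding length, 0.26 with the lowest-numbered transcript and 0.22 at 10 CPM or more. The sign of the following log2 fold changes, none of them called, turned; all but those of Rps27 (-1.30), Rpl3l (0.64) and Rpl39l (0.30) were within 0.11 of 0. With the length trend taken out the values were 0.062 (Rpl23a), 0.060 (Rpl29), 0.065 (Rpl36a), 0.057 (Rpl7), 0.049 (Rps25), 0.029 (Rack1), 0.021 (Eef1a1). With pseudogene counts added the values were 0.18 (Rpl23a), 0.032 (Rpl36a). With WT 4 moved to cKO the values were 0.024 (Rpl23a), 0.0069 (Rpl29), 0.015 (Rpl4), 0.017 (Rpl7), 0.013 (Rps25), 0.12 (Ubtf). With library totals alone, which moves the median of all genes by -0.10, the values were -0.064 (Rpl34), -0.083 (Rpl7a), -0.0070 (Rpl7l1), -0.10 (Rps4x), -0.025 (Ncl), -0.037 (Eif4ebp2), -0.044 (Mtor). Without mitochondrially encoded genes the values were 0.00058 (Rps25), 0.00067 (Ubtf). With upper quartile factors the value was -0.0011 (Rps4x). Without a count filter the value was -0.0061 (Rps4x). Without 1 library, or without WT 4 and cKO 1 together (chosen after seeing the data), the ranges were -0.035 to 0.027 (Eef1a1), -0.068 to 0.23 (Mtor), -0.069 to 0.057 (Rack1), -0.12 to 0.069 (Rpl23a), -0.10 to 0.0075 (Rpl29), -0.039 to 0.14 (Rpl34), -0.12 to 0.025 (Rpl36a), -0.090 to 0.47 (Rpl39l), -0.32 to 2.17 (Rpl3l), -0.089 to 0.031 (Rpl7), -0.051 to 0.11 (Rpl7a), -0.19 to 0.0021 (Rplp0), -0.074 to 0.066 (Rps25), -1.88 to 0.28 (Rps27), -0.044 to 0.081 (Rps4x), -0.044 to 0.12 (Ubtf). The causes were not tested. Depth limits genes of a few CPM such as Rpl39l.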
